A study of Homo sapiens with 6 samples.

Results

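Cells meet foreign RNA with a small group of receptors. RIG-I, MDA5 and LGP2 are RNA helicases of the cytosol, the RIG-I-like receptors, and the first pair pass their signal to the adaptor MAVS on mitochondria. TLR3 reads double-stranded RNA in endosomes and uses the adaptor TRIF, the product of TICAM1. Both adaptors bring in the kinases TBK1 and IKKε, the product of IKBKE, which phosphorylate IRF3 and IRF7 and so switch on interferon genes. PKR, the product of EIF2AK2, binds double-stranded RNA and blocks translation through eIF2α, and ZBP1 binds Z-form nucleic acid and can start necroptosis. Most of the receptors are themselves interferon-stimulated genes, whereas the adaptors and TBK1 are usually described as constitutively expressed.

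The 10 genes DDX58, IFIH1, DHX58, TLR3, EIF2AK2, ZBP1, MAVS, TICAM1, TBK1 and IKBKE were analyzed, out of 28278 gene symbols in the deposited tables. DDX58 is the symbol in those tables for the gene of RIG-I, now named RIGI. The genes were chosen by name and function, and the family was taken up after the siALDOA to siControl differences of these same libraries were known. The differences between the groups are therefore given for the 10 genes as descriptions, with an error but without p-values, and nothing is inferred from how many of them changed.

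The libraries come from HT29, an established epithelial line from a human colorectal adenocarcinoma. In the siALDOA group (3 libraries, labelled ALDOA KD) the cells received siRNA against the glycolytic enzyme gene ALDOA, and in the siControl group (3 libraries, labelled WT) a scrambled siRNA. RNA was taken 48 h later, and the cells of both groups had been transfected with siRNA. A single siRNA against the gene is described and cells without siRNA are not among the samples, so an effect of the loss of ALDOA and an effect of this siRNA cannot be told apart. The sources used here give no sequence for this siRNA, and the targeting sequence that the methods list for ALDOA is that of an shRNA. The libraries held 27277538 to 33237914 counts on genes. ALDOA itself was at 283, 305 and 280 CPM with siALDOA and at 592, 637 and 668 CPM with siControl, so the target was lower in every siALDOA library. CPM is the usual depth-scaled count, here with TMM factors, a scaling that sets libraries to a common scale from the bulk of their genes. All 9 epithelial markers were present in every library, with 176 counts or more each. Of the 10 blood cell markers, TYROBP, CD3E and LST1 had 0 counts throughout, and the summed level of the 10 was 0.660 to 0.781 CPM (scaled by library totals) with siALDOA and 0.662 to 1.13 with siControl. The 5 fibroblast markers summed to 3.28 to 4.51 with siALDOA and 2.91 to 4.18 with siControl. Ribosomal RNA genes took 7.71% to 13.1% of the siALDOA counts and 8.15% to 17.4% of the siControl counts. In bulk RNA, a change in every cell and a larger change in part of the cells cannot be told apart.

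In the siALDOA libraries the 5 cytosolic receptors were all above, and the 2 adaptors below, their siControl levels, IKBKE was narrowly above, and TLR3 and TBK1 overlapped between the groups. A threshold of an adjusted p < 0.05 from edgeR's quasi-likelihood fit over 15307 genes, all of the 10 genes among them, is used to say where a gene lies among all genes. For the 10 genes it is part of the description and no test, since they were chosen with this contrast known. The 5 cytosolic receptors lay past it as higher and the 2 adaptors as lower, and TLR3, TBK1 and IKBKE did not. Over all genes tested, 9.66% passed it, 4.36% as higher and 5.29% as lower with siALDOA. These were 668 and 810 genes, and with library totals only, without TMM, 896 and 279. With 1 library omitted, 359 to 644 genes were higher and 471 to 790 lower. The 3 siALDOA libraries lay above all 3 siControl libraries for 6 of the 10 genes and below them for 2, compared with 13.1% and 14.6% of all genes tested. The median log2 fold change was 0.50 over the 10 genes, with a range from -0.40 to 2.38, and 0.0016 over all genes tested. Log2 fold changes are siALDOA relative to siControl throughout.

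**Figure D1:**
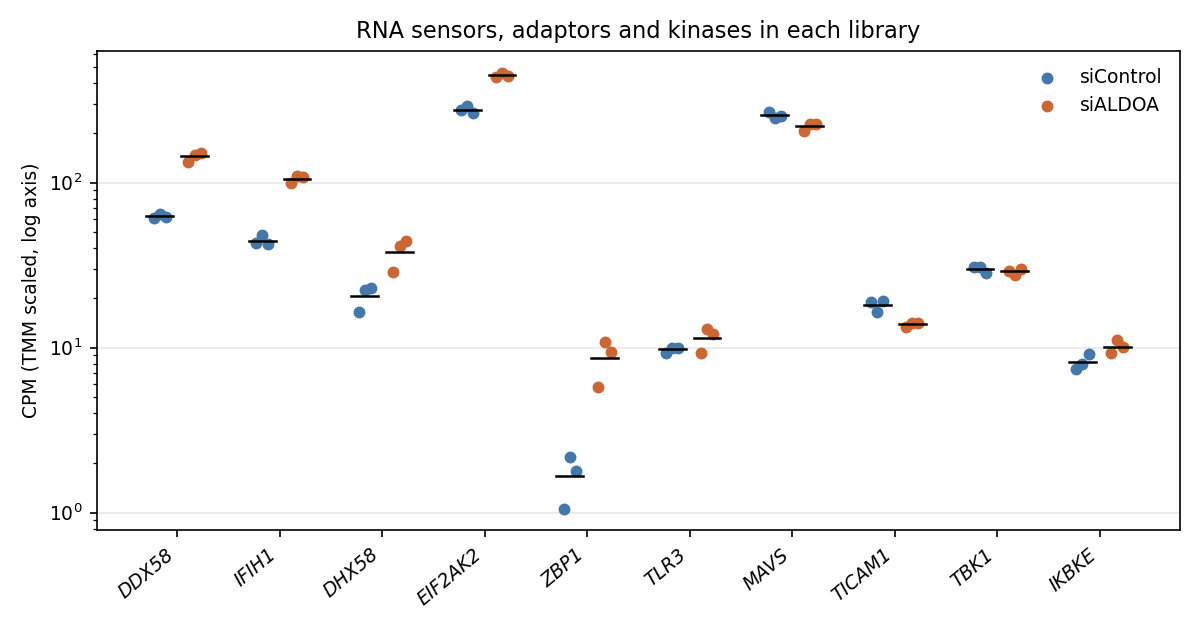
Level of each of the 10 genes in CPM on a log axis; points are the 3 libraries of siControl and of siALDOA in the order of their replicate numbers, and black lines are group means. The groups are apart for DDX58, IFIH1, DHX58, EIF2AK2 and ZBP1 (siALDOA higher) and for MAVS and TICAM1 (siALDOA lower), they nearly touch for IKBKE, and they overlap for TLR3 and TBK1.

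DDX58 (chr9:32455302-32526208, minus strand; hg38 with GENCODE here and for the other genes) encodes RIG-I, which binds short RNA ends with a 5′ triphosphate. Its counts were 3734, 4423 and 4294 for siALDOA against 1895, 1959 and 2052 for siControl. This corresponds to 134, 147 and 151 CPM against 60.8, 64.2 and 62.3 CPM. Every siALDOA library was at least 2.09 times as high as the highest siControl library. DDX58 thus rose 2.31-fold, a log2 fold change of 1.21 (SE 0.063).

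IFIH1 (chr2:162267074-162318684, minus strand) encodes MDA5, which binds long double-stranded RNA. It was at 99.3, 110 and 109 CPM with siALDOA and at 42.8, 48.4 and 42.5 CPM with siControl. The groups were again apart, with the lowest siALDOA library 2.05 times as high as the highest siControl library. IFIH1 rose 2.38-fold, and its log2 fold change of 1.25 (SE 0.069) was close to that of DDX58. The ratio of DDX58 to IFIH1 within a library, per kb of transcript, was 1.05 ± 0.022 (SD, n = 3) with siALDOA and 1.09 ± 0.055 (SD, n = 3) with siControl, and these values overlapped.

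DHX58 (chr17:42101404-42112714, minus strand) encodes LGP2, the member of the family without the signaling domain, which modulates MDA5 and RIG-I. It was at 28.6, 41.4 and 44.1 CPM with siALDOA and at 16.4, 22.3 and 22.9 CPM with siControl. All siALDOA libraries were above all siControl libraries, although siALDOA replicate 1 exceeded the highest siControl library by a factor of 1.25 only. Its log2 fold change was 0.89 (SE 0.13), with a span from 0.75 to 1.06 over the 6 fits that each omitted a library.

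EIF2AK2 (chr2:37099210-37157522, minus strand), the gene of PKR, had the highest counts of the 10 genes, namely 12191, 13976 and 12554 for siALDOA against 8591, 8901 and 8728 for siControl. Its levels were 438, 465 and 442 CPM against 276, 292 and 265 CPM. The groups did not overlap, and the replicates of each differed little (CV 3.27% with siALDOA and 4.86% with siControl). EIF2AK2 rose 1.62-fold, or 0.69 on the log2 scale (SE 0.057). The gene overlaps GPATCH11 on the opposite strand, and the strand setting of the counting is not given in the sources used here. GPATCH11 averaged 253 counts per library, with a log2 fold change of -0.32. DDX58 and TBK1 overlap other annotated genes on the same strand, and TBK1 and IKBKE overlap genes on the opposite strand. None of these is among the counted gene symbols, and an effect of the overlaps on the counts was not tested.

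ZBP1 (chr20:57603846-57620576, minus strand) was the lowest of the 10 genes with siControl and changed the most. Its counts were 33, 66 and 59 with siControl and 161, 325 and 269 with siALDOA. The CPM values were 1.06, 2.16 and 1.79 against 5.78, 10.8 and 9.47, so that the lowest siALDOA library was 2.67 times as high as the highest siControl library. ZBP1 rose 5.20-fold, or 2.38 on the log2 scale (SE 0.25), and the fits that each omitted a library gave 2.14 to 2.60. The CV between replicates was 30.0% with siALDOA and 33.6% with siControl, and counting error alone would give 6.30% and 13.8%.

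TLR3 (chr4:186068911-186088073, plus strand), the receptor of the endosome, was at 9.30, 13.0 and 12.1 CPM with siALDOA and at 9.30, 9.99 and 9.98 CPM with siControl. One siALDOA library, replicate 1, lay at the siControl level, and the groups overlapped. Its log2 fold change of 0.23 (SE 0.13) did not pass the threshold. It was 0.36 without siALDOA replicate 1 and 0.13 without siALDOA replicate 2, and it did not pass under any of the 15 alternative settings.

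**Figure D2:**
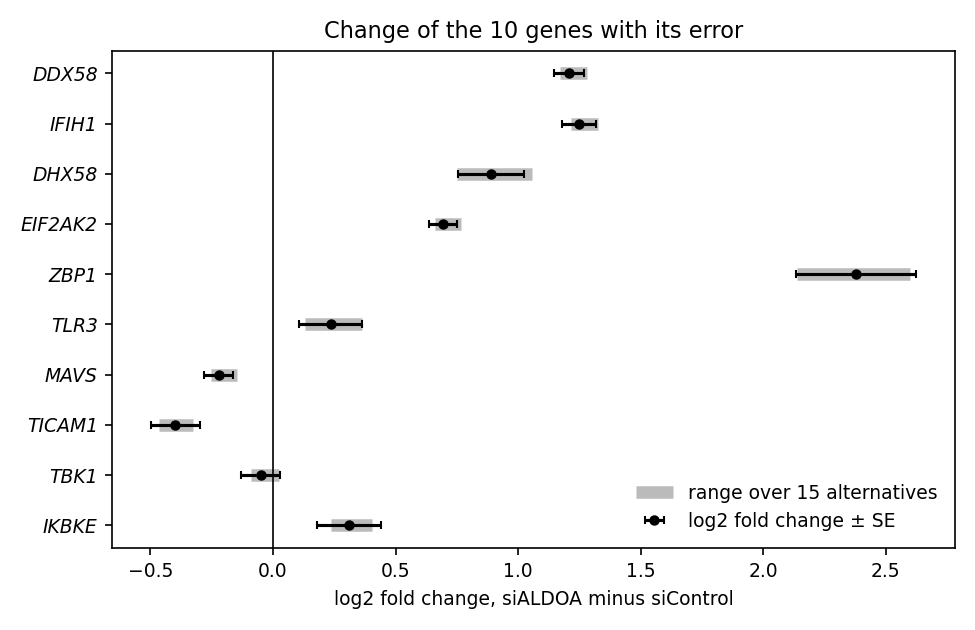
Log2 fold change of each of the 10 genes, siALDOA minus siControl (points, with bars of 1 SE), and its range over 15 alternative settings of the fit (grey). ZBP1 is at 2.38, DDX58 and IFIH1 are at 1.21 and 1.25, MAVS and TICAM1 are below 0, and the range of TBK1 crosses 0.

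Promoter sequences of RefSeq on GRCh38.p14, the 250 bases before and 50 after the annotated start, were found for 8 of the 10 genes; DHX58 and ZBP1 had no entry. The interferon-stimulated response element (ISRE) is bound by the interferon-activated factors ISGF3 and IRFs. Its core was searched as GAAANNGAA on both strands and so was the longer ISRE consensus, most of whose letters are those of the core. The core was present in 3 of the 8 promoters, those of IFIH1, TLR3 and EIF2AK2, and in 8.11% of 35116 promoters of all genes. The longer consensus was present in those 3 and in DDX58, and in 3.24% of all promoters. The promoters of MAVS, TICAM1, TBK1 and IKBKE had neither in this window. TTCNNNGAA, the gamma-activated sequence (GAS) that reads the same on both strands, was found in TLR3 alone of the 8 and in 7.66% of all promoters.

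The stretches that hold these matches are shown for the genes of the 2 receptors RIG-I and MDA5, which rose to a similar extent, for that of PKR, and for TLR3, which did not pass the threshold and has a match of the same consensus at the same positions on the opposite strand. They run 5′ to 3′ along the strand of the gene, positions are counted from 1 at the first transcribed base of RefSeq with -1 just before it, and capitals mark the bases matched by the ISRE core or the longer consensus, with TTTC in place of GAAA where the match is on the opposite strand. The capitals lie from -145 to -134 relative to the start in DDX58 (chr9:32526310-32526361, minus strand). They lie from -164 to -144 in the upstream stretch of IFIH1 (chr2:162318808-162318868, minus strand), where 3 core matches overlap, and from -21 to -10 in the other (chr2:162318674-162318725). They lie from -6 to 6 in EIF2AK2 (chr2:37156955-37157006, minus strand) and from -6 to 6 in TLR3 (chr4:186069130-186069181, plus strand). The RefSeq start lies 542 bases inside the GENCODE gene in EIF2AK2, 245 in TLR3 and 12 in DDX58, and both annotations begin at the same base in IFIH1, so that by GENCODE the matches of EIF2AK2 and TLR3 lie inside the gene.
DDX58: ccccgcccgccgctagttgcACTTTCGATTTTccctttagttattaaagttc
IFIH1, upstream: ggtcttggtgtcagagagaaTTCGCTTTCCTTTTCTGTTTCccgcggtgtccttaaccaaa
IFIH1, at the start: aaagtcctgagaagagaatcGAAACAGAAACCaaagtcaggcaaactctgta
EIF2AK2: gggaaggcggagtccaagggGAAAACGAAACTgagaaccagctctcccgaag
TLR3: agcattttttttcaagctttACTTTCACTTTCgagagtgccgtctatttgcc
A match of letters is a description of the sequence, and binding was not measured here.

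The adaptor genes moved the other way. The counts of MAVS (chr20:3846799-3876123, plus strand) were 5755, 6798 and 6404 for siALDOA against 8345, 7484 and 8390 for siControl. Its level was 207, 226 and 225 CPM against 268, 245 and 255 CPM, and the groups did not overlap, with the highest siALDOA library at 0.922 of the lowest siControl library. MAVS fell to 85.8% of the siControl level, a log2 fold change of -0.22 (SE 0.058). MAVS passed the threshold in 12 of the 15 alternatives. It did not pass with library totals only (-0.15), without siControl replicate 1 (-0.19) or without siControl replicate 3 (-0.23).

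TICAM1 (chr19:4815932-4831712, minus strand), the gene of TRIF, was at 13.4, 14.1 and 14.1 CPM with siALDOA and at 19.0, 16.5 and 19.3 CPM with siControl. Its 3 siALDOA libraries were close to each other (CV 2.97%) and below every siControl library. TICAM1 fell to 75.8% of the siControl level, or by 0.40 on the log2 scale (SE 0.10). TICAM1 passed the threshold in 13 of the 15 alternatives and did not with library totals only (-0.33) or without siControl replicate 3 (-0.36). Both the adaptor of the RIG-I-like receptors and that of TLR3 thus had less mRNA in the siALDOA libraries, and whether they differed in the size of the change was not tested.

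TBK1 (chr12:64452090-64502114, plus strand), the kinase shared by both routes, was counted 815, 832 and 854 times for siALDOA against 959, 946 and 934 times for siControl. Scaled for library size these were 29.3, 27.7 and 30.1 CPM against 30.8, 31.0 and 28.3 CPM, and the groups overlapped. Its log2 fold change was -0.050 (SE 0.079), and 0.025 with library totals only. IKBKE (chr1:206470476-206496889, plus strand), its inducible relative, was at 9.23, 11.1 and 10.1 CPM with siALDOA and at 7.41, 7.96 and 9.20 CPM with siControl. The groups did not overlap, but the lowest siALDOA library exceeded the highest siControl library by a factor of 1.004 only. A log2 fold change of 0.31 (SE 0.13) did not pass the threshold, and it was between 0.24 and 0.40 over all alternatives.

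Levels of different genes were compared as CPM per kb of the canonical GENCODE transcript. With siControl the order was EIF2AK2 at 27.8 ± 1.35, MAVS at 21.8 ± 0.958, DDX58 at 13.5 ± 0.370, IFIH1 at 12.4 ± 0.933, TBK1 at 9.94 ± 0.485, DHX58 at 7.92 ± 1.40, TICAM1 at 6.80 ± 0.562, IKBKE at 2.53 ± 0.282, TLR3 at 1.62 ± 0.0662 and ZBP1 at 0.780 ± 0.262 CPM per kb (SD, n = 3 each). The libraries of DDX58 and IFIH1 overlapped, as did those of DHX58 and TICAM1, and no other neighbors in this order did. With siALDOA, EIF2AK2 was still the highest at 44.9 ± 1.47 CPM per kb (SD, n = 3), and DDX58 at 31.1 ± 1.92 and IFIH1 at 29.6 ± 1.63 stood above MAVS at 18.7 ± 0.938 (SD, n = 3 each). ZBP1 was at 4.06 ± 1.22 CPM per kb (SD, n = 3), between TICAM1 and IKBKE, and its siALDOA libraries overlapped those of both. The order depends on the length used, whereas the difference of 1 gene between the groups does not. With the length of all annotated exons, chosen after the data were seen, the siControl order was EIF2AK2, MAVS, IFIH1, TICAM1, DDX58, DHX58, IKBKE, TBK1, TLR3 and ZBP1. The siControl level of TBK1 was then 2.04 CPM per kb, that of DDX58 6.03, that of IFIH1 8.53 and that of ZBP1 0.309. With siALDOA the order by this length was EIF2AK2, IFIH1, MAVS, DDX58, DHX58, TICAM1, IKBKE, TBK1, ZBP1 and TLR3. ZBP1, at 1.61 CPM per kb, was then below IKBKE at 2.68 and above TLR3 at 1.53. EIF2AK2 was first in both groups by either length, and ZBP1 was last with siControl. With siALDOA the mean of ZBP1 was above that of TLR3 by either length. By the length of all annotated exons, however, the siALDOA libraries of ZBP1 and TLR3 overlapped.

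**Figure D3:**
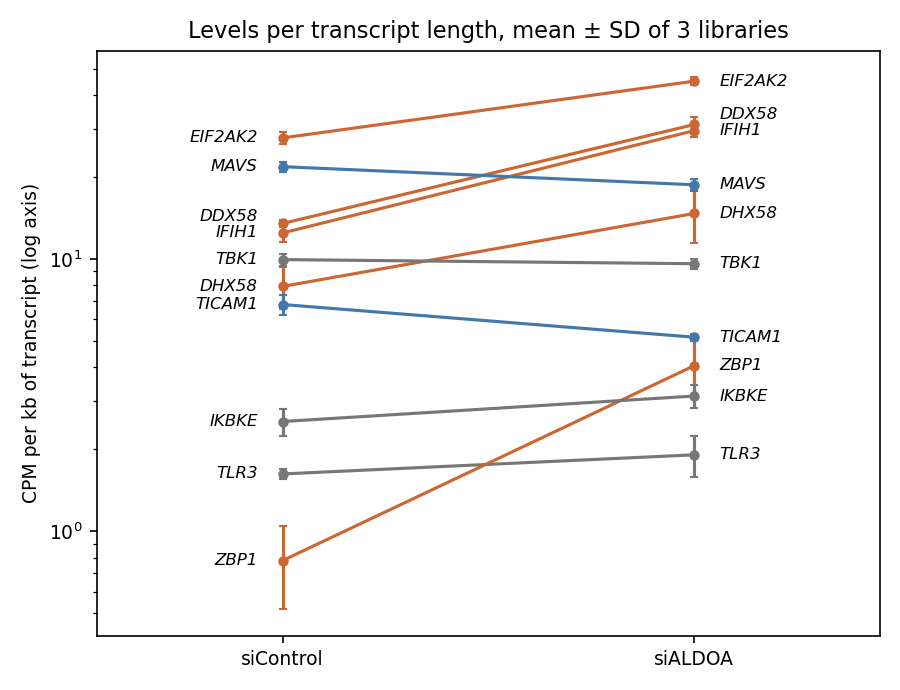
Mean level of the 10 genes in CPM per kb of transcript on a log axis, siControl on the left and siALDOA on the right, with bars of 1 SD over 3 libraries. Orange lines are genes past the threshold as higher, blue lines as lower and grey lines not past it; DDX58 and IFIH1 go from 13.5 and 12.4 to 31.1 and 29.6 and ZBP1 from 0.780 to 4.06. With the length of all annotated exons, IFIH1 but not DDX58 crosses MAVS, and ZBP1 does not cross IKBKE.

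A ratio within a library does not depend on how libraries are scaled. Per kb of transcript, the ratio of DDX58 to MAVS was 1.64, 1.65 and 1.70 for siALDOA against 0.576, 0.664 and 0.620 for siControl, a 2.69-fold difference. The ratio of IFIH1 to MAVS was 1.57, 1.59 and 1.58 against 0.524, 0.647 and 0.547, which is 2.76-fold. The ratio of DHX58 to MAVS was 0.780 ± 0.137 against 0.365 ± 0.0768 (SD, n = 3 each), 2.14-fold. Receptor mRNA was thus higher relative to MAVS mRNA in each siALDOA library than in any siControl library for all 3 RIG-I-like receptors. For the endosomal route, the ratio of TLR3 to TICAM1 was 0.311, 0.414 and 0.383 with siALDOA and 0.219, 0.270 and 0.231 with siControl, a 1.54-fold difference without overlap. This was the case although TLR3 alone overlapped between the groups. The ratio of TBK1 to IKBKE was 3.08 ± 0.380 with siALDOA and 3.98 ± 0.598 with siControl (SD, n = 3 each), and the groups overlapped. By the length of all annotated exons, the fold differences of these ratios between the groups are the same, but the ratios themselves move. The ratio of DDX58 to MAVS was below 1 in both groups (0.747 and 0.278), whereas that of IFIH1 to MAVS was again above 1 with siALDOA (1.09) and below 1 with siControl (0.394). The ratio of TBK1 to IKBKE, above 1 by the canonical transcript, was 0.741 with siALDOA and 0.955 with siControl, and that of DDX58 to IFIH1 was 0.687 and 0.709.

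The replicates were not equally spread for all of the 10 genes. In siALDOA replicate 1, DDX58, IFIH1, DHX58, TLR3, EIF2AK2, ZBP1, MAVS, TICAM1 and IKBKE all had the lowest log2 CPM of their group. The deviation from the group mean was -0.53 for ZBP1, -0.39 for DHX58 and -0.29 for TLR3, but only -0.033 for EIF2AK2. In siControl replicate 1, ZBP1 at -0.57, DHX58 at -0.31, IKBKE at -0.14, TLR3 at -0.068 and DDX58 at -0.038 were also the lowest of their group. IFIH1, EIF2AK2, MAVS, TICAM1 and TBK1 were not the lowest there. These 2 libraries had the largest share of ribosomal RNA counts of their groups, 13.1% and 17.4%, but siControl replicate 2, with 15.3%, had the highest ZBP1 of its group (0.42). The part of the ribosomal RNA share in these deviations was not tested. Without siALDOA replicate 1 the log2 fold change was 2.60 for ZBP1 and 1.06 for DHX58, and without siControl replicate 1 it was 2.14 and 0.75. ZBP1 was likewise at 2.60 without siControl replicate 2.

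**Figure D4:**
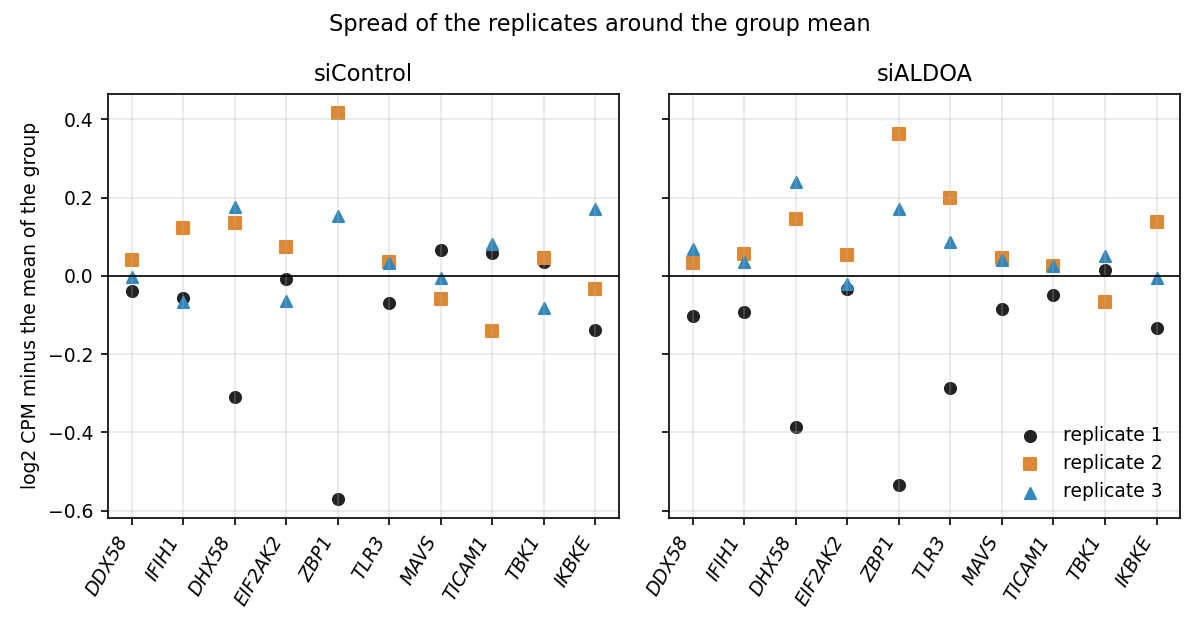
Log2 CPM of each gene minus the mean of its group, for the 3 siControl (left) and the 3 siALDOA libraries (right), with a symbol for each replicate number. ZBP1 and DHX58 spread the most, with replicate 1 lowest in both groups (-0.57 and -0.31 in siControl, -0.53 and -0.39 in siALDOA), and EIF2AK2 and TBK1 spread little.

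The genes with the most similar pattern were taken by the Pearson correlation of log2 CPM over the 6 libraries, among tested genes of at least 1 CPM on average. For DDX58 they were PTPRJ and SP110, for IFIH1 G3BP2 and GNPDA1, for DHX58 PROCA1 and COQ8B, for EIF2AK2 DDX60L and IFI44L, and for ZBP1 APOL2 and RAB2A. For TLR3 they were SLC24A1 and CRABP2, for MAVS CARNMT1-AS1 and FOXN2, for TICAM1 UBE2D4 and BHLHE41, for TBK1 LRRC37A6P and RASA1, and for IKBKE ARSD and CXorf38. The r of these 20 pairs was between 0.974 and 1.00. With 6 libraries in 2 groups, such values include the difference between the groups, the genes were measured in the same libraries, and the values are given as a description.

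The other genes of the pathway were taken from 8 lists made by function, with 128 genes in all, and 118 of them had enough counts to be tested. Of these, 20 rose and 9 fell with siALDOA at an adjusted p < 0.05, together 24.6% compared with 9.66% of all genes tested. The p-values are from edgeR's quasi-likelihood test with Benjamini-Hochberg adjustment over all 15307 genes. The lists were made with earlier results of these data known, so the shares and the p-values below are given as a description. The median log2 fold change over the 118 genes was 0.027. By list, the share past the threshold was 26.1% for regulators of the RIG-I-like receptors, 28.6% for adaptor and kinase partners and 30.8% for endosomal TLR partners. It was 18.2% for other eIF2 kinases and PKR regulators, 25.0% for ZBP1 partners and 35.7% for DNA sensors. For other helicases it was 8.33%, and for interferons and their receptors 33.3%. Of the 29 genes, 14 passed the threshold under every alternative as well. The other 15 did not pass under at least 1 of them. Without siControl replicate 3, 12 rose and 5 fell, without siALDOA replicate 2 or 3, 13 rose and 6 fell, and without siControl replicate 2, 15 rose and 4 fell.

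Among 23 regulators of the RIG-I-like receptors, 5 rose, 1 fell and 17 did not pass. DDX60, a helicase described as a RIG-I cofactor, rose from 46.0 ± 3.77 to 104 ± 10.04 CPM (SD, n = 3 each), a log2 fold change of 1.18 (SE 0.077, adjusted p = 9.51e-10). TRIM25, the ubiquitin ligase best known for RIG-I activation, rose from 299.7 ± 7.22 to 401 ± 22.7 CPM (SD, n = 3 each), or 0.42 on the log2 scale (SE 0.057, adjusted p = 4.62e-05). ZC3HAV1, the antiviral RNA-binding protein ZAP, rose by 0.29 (SE 0.060, adjusted p = 0.00275). USP21 (0.34, adjusted p = 0.0131) and ZCCHC3 (0.28, adjusted p = 0.0133) were also called as higher, but USP21 reached an adjusted p of 0.0984 without siControl replicate 3 and 0.063 without siALDOA replicate 3. ZCCHC3 did not pass without siALDOA replicate 2 or 3 or without siControl replicate 2 or 3 (adjusted p up to 0.0828). RNF125, a ligase that marks RIG-I for degradation, was the 1 gene called as lower (-0.44, adjusted p = 0.0419), and it did not pass with library totals only (adjusted p = 0.084) or without siALDOA replicate 2 or 3 or siControl replicate 2 or 3 (0.0726 to 0.227). RNF135 (Riplet), another ligase of RIG-I, was at 7.87 ± 1.40 and 7.62 ± 0.654 CPM with siALDOA and siControl (SD, n = 3 each, log2 fold change 0.044, adjusted p = 0.897). NLRX1, a mitochondrial inhibitor of MAVS, had a log2 fold change of 0.022 (adjusted p = 0.928).

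Among 21 partners of the adaptors and kinases, 3 rose and 3 fell. IRF7, a substrate of TBK1 and IKKε and itself interferon-stimulated, rose from 142 ± 1.68 to 241 ± 31.8 CPM (SD, n = 3 each), or 0.76 on the log2 scale (SE 0.074, adjusted p = 4.51e-07). IRF3, the other substrate, was at 125 ± 4.79 and 117 ± 1.51 CPM (SD, n = 3 each), and its log2 fold change of 0.092 (SE 0.057, adjusted p = 0.358) did not pass. TRAF3, which links both adaptors to TBK1, did not pass either (0.18, adjusted p = 0.145). OPTN, a ubiquitin-binding partner of TBK1, rose by 0.37 (adjusted p = 0.00204), while TAX1BP1 (-0.39, adjusted p = 1.41e-04) and TNIP1 (-0.44, adjusted p = 1.80e-04), both negative regulators that work with A20, fell. CYLD (0.32, adjusted p = 0.0472) passed in 7 of the 15 alternatives and in none that left out a library, with adjusted p up to 0.152 without siControl replicate 3. IRF5 (-0.41, adjusted p = 0.0213) was not past the threshold when siALDOA replicate 2 or 3 or siControl replicate 2 or 3 was omitted (adjusted p up to 0.0977) or with library totals only (0.0887).

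Of the other Toll-like receptors, TLR7, TLR8 and TLR10 had at most 2 counts in any library, TLR9 had at most 10, and none of these was tested. Of the 13 tested genes of this list 4 rose and 0 fell. MYD88, the adaptor of TLR7 and TLR9 but not of TLR3, rose from 66.5 ± 4.34 to 92.2 ± 11.7 CPM (SD, n = 3 each), a log2 fold change of 0.47 (SE 0.080, adjusted p = 5.37e-04). UNC93B1, the chaperone that carries TLR3, TLR7 and TLR9 to endosomes, was called as higher by 0.32 (SE 0.081, adjusted p = 0.0158). It passed in 10 of the 15 alternatives, with adjusted p of 0.12 without siALDOA replicate 2, 0.085 without siALDOA replicate 3, and 0.0513 to 0.0588 without any 1 of the siControl libraries. HSP90B1 (0.26, adjusted p = 0.0122) had an adjusted p of 0.0565 without siControl replicate 3. CD14 (0.32, adjusted p = 0.0485) passed when siALDOA replicate 1 was omitted but not when any other library was, with adjusted p up to 0.153 without siControl replicate 1.

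PKR has 3 relatives that also phosphorylate eIF2α, and none of them passed the threshold; whether PKR differed from them was not tested. EIF2AK1 (HRI), EIF2AK3 (PERK) and EIF2AK4 (GCN2) had log2 fold changes of -0.022, 0.0068 and -0.067, with adjusted p of 0.858, 0.975 and 0.672, and the sign of each changed under other scalings or fits. Of the 11 genes in the list of other eIF2α kinases, PKR regulators and eIF2α itself, 0 rose and 2 fell. EIF2S1, which encodes eIF2α itself, fell by 0.28 on the log2 scale (SE 0.067, adjusted p = 0.00922), and it did not pass when siALDOA replicate 3 (0.0626) or siControl replicate 2 (0.0669) was omitted or with library totals only (0.129). PPP1R15A (GADD34), the phosphatase subunit that reverses PKR's mark, fell by 0.25 (adjusted p = 0.0321). It did not pass without siALDOA replicate 1 or 2 or siControl replicate 2 or 3 (adjusted p up to 0.183) or with library totals only (0.262). PRKRA (PACT), an activator of PKR, did not pass (-0.13, adjusted p = 0.427).

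Of the 8 partners of ZBP1, 2 rose and 0 fell. ADAR, whose long isoform shares the Z-form binding domain with ZBP1 and edits double-stranded RNA, rose from 578 ± 3.13 to 781 ± 59.4 CPM (SD, n = 3 each), a log2 fold change of 0.43 (SE 0.062, adjusted p = 7.91e-05). TRIM34 (0.35, adjusted p = 0.0234) did not pass without siALDOA replicate 2 or 3 or without siControl replicate 1 or 3 (adjusted p up to 0.0912). The kinases of necroptosis did not pass: RIPK3 was at 21.4 ± 0.941 and 20.8 ± 2.19 CPM with siALDOA and siControl (SD, n = 3 each, adjusted p = 0.845), RIPK1 changed by 0.010 (adjusted p = 0.947) and MLKL by 0.17 (adjusted p = 0.242).

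Sensors of DNA were compared with the RNA sensors as the nearest other family. Of 14 tested genes, 3 rose and 2 fell. IFI16 rose from 0.766 ± 0.187 to 2.75 ± 0.431 CPM (SD, n = 3 each), or 1.84 on the log2 scale (SE 0.30, adjusted p = 3.88e-04). STING1, the adaptor of cGAS, rose by 0.55 (SE 0.10, adjusted p = 0.00147), a direction opposite to that of MAVS and TICAM1. CGAS itself did not pass (0.15, adjusted p = 0.490). TREX1, a DNA exonuclease, rose by 0.52 (adjusted p = 0.00922, and 0.0666 without siALDOA replicate 2). DDX41 fell by 0.36 on the log2 scale (adjusted p = 0.00101), and POLR3B (-0.35, adjusted p = 0.0221) did not pass with library totals only (0.138) or without siALDOA replicate 1 or 3 or siControl replicate 2 or 3 (0.051 to 0.11). Among 24 other DExD/H-box helicases, DDX24 rose (0.33, adjusted p = 0.00113), DDX21 fell (-0.43, adjusted p = 2.82e-05) and 22 did not pass, with DHX9 at -0.044 (adjusted p = 0.713). The share past the threshold was 8.33% in this list and 9.66% over all genes tested.

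**Figure D5:**
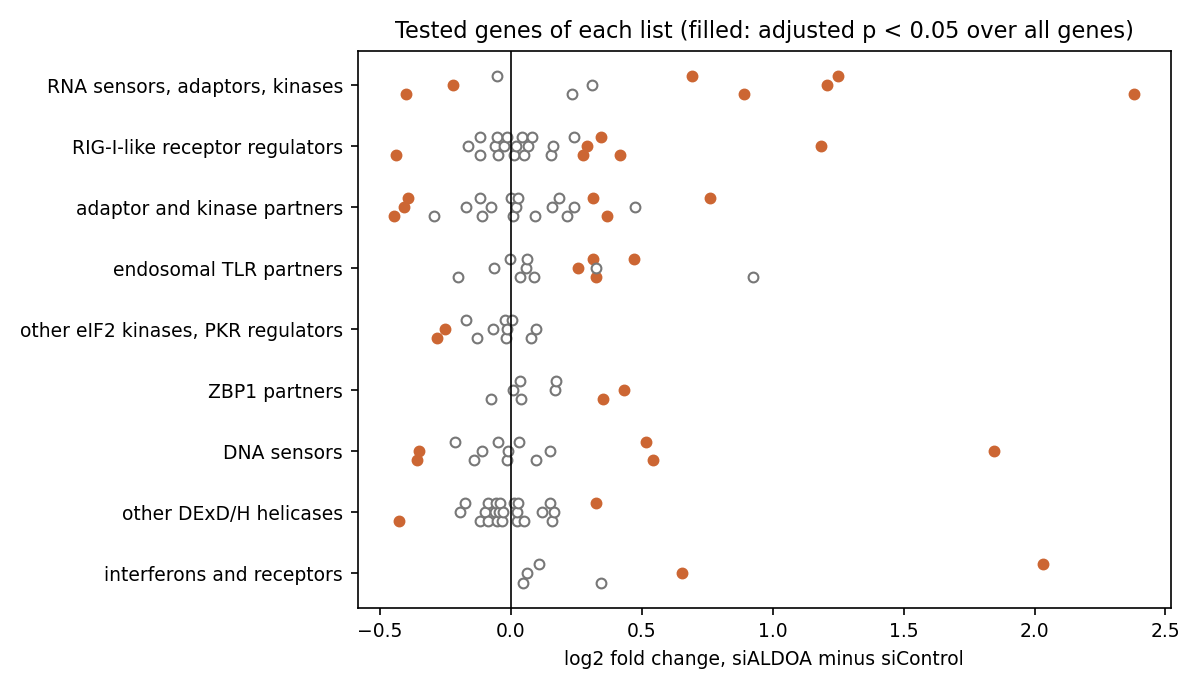
Log2 fold change, siALDOA minus siControl, of every tested gene of each list; filled points passed an adjusted p < 0.05 over all genes tested and open points did not. The 10 RNA sensors, adaptors and kinases reach 2.38, the list of other helicases stays between -0.43 and 0.33, and the other eIF2 kinases and PKR regulators stay between -0.28 and 0.097.

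Of the 11 genes listed as interferons and their receptors, 6 were tested, of which 2 rose, 0 fell and 4 did not pass. Most of the interferon genes had few counts. For siALDOA, the counts were 2, 5 and 6 for IFNB1, 3, 11 and 17 for IFNL2, and 4, 9 and 10 for IFNL3. For siControl, IFNB1 and IFNL2 were at 0 in all 3 libraries and IFNL3 was at 0, 0 and 2. IFNA1 was at 11, 4 and 7 with siALDOA against 7, 2 and 1 with siControl, where the groups overlapped. IFNK had 1 count in siALDOA replicate 3 and 0 elsewhere. These genes did not pass the filter on low counts and were not tested. IFNL1, at 0.533 ± 0.0652 CPM with siALDOA and 0.127 ± 0.0348 CPM with siControl (SD, n = 3 each), had a log2 fold change of 2.03 (SE 0.57, adjusted p = 0.0266). Its counts were 16, 17 and 13 for siALDOA against 5, 4 and 3 for siControl. It met the filter on low counts only through its siALDOA libraries, so its p-values are given as a description. IFNL1 passed the threshold in none of the fits that left out 1 library, where its adjusted p was 0.0552 to 0.137. Nor did it pass without a filter on low counts (0.0897), and DESeq2 gave no adjusted p for it. IFNE, at 7.55 ± 1.18 against 4.79 ± 1.31 CPM (SD, n = 3 each), had more counts. It was called as higher by 0.65 (adjusted p = 0.0287), but it did not pass when siALDOA replicate 1 (adjusted p = 0.114), siControl replicate 2 (0.158) or siControl replicate 3 (0.0906) was omitted.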

How the data were processed

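RNA-Seq of 6 HT29 libraries was analyzed, 3 with siALDOA and 3 with siControl, grouped by the sample titles. According to the methods, the authors used TopHat2 for alignment (hg38) and gfold for counting, and the deposited files hold raw counts per gene symbol. Annotation, strand setting and the treatment of multiply aligned reads are not given in the sources used here. The totals were 27277538 to 33237914 counts per library. Both this depth and the number of libraries limit the precision.

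Counts were tested in R 4.3.3 with edgeR 4.0.16 (filterByExpr, TMM, quasi-likelihood F-test, no covariate) over all genes, with Benjamini-Hochberg adjustment and a threshold of 0.05. SEs were obtained as the size of the log2 fold change over √F, and log2 CPM used a prior count of 2. The labels call the replicates biological replicates, and nothing more is stated about their source, so p-values measure the spread between these libraries. Correlations of the deviations of same-numbered libraries were 0.12, 0.077 and 0.079, and numbers were not used as pairs. These values do not settle whether same-numbered libraries belong together. A replicate block gave more calls (987 higher and 1175 lower, against 668 and 810). No 2 libraries of a group agreed within sampling noise (chi-square per degree of freedom from 5.02).

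The genes, lists and tests were chosen with earlier results of these data known. Named were the 10 genes, per gene the 2 most correlated genes, in each pathway list up to 8 genes past the threshold (or the 8 of smallest p where none passed), ALDOA, and a fixed set that included IRF3, TRAF3, RIPK3 and CGAS. The 15 alternatives were library totals only, upper quartile normalization, DESeq2 1.42.0, limma-voom (limma 3.58.1), a likelihood ratio test, no filter, a minimum of 10 counts per library, a replicate block, each of the 6 libraries left out and, added after the data were seen, ribosomal RNA genes left out with library totals only. The fits were tested on simulated data. Transcript lengths and positions came from GENCODE release 44, promoters from RefSeq (GRCh38.p14), and figures from matplotlib 3.10.9. The comparison of protein sequences that was planned for these genes was not run.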

Additional observations from a re-analysis of the deposited data

How the results depend on the processing

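For the 10 genes, chosen with this contrast known, the alternatives describe how far the values move and test nothing. Over the 15 alternatives the log2 fold change was 1.17 to 1.28 for DDX58, 1.22 to 1.33 for IFIH1, 0.66 to 0.77 for EIF2AK2, -0.25 to -0.15 for MAVS and -0.47 to -0.33 for TICAM1. Between 5 and 7 of the 10 genes lay past the threshold, 5 with library totals only and without siControl replicate 3. Of the 10 genes, TBK1 alone changed sign (0.025 with library totals only, a scaling that moved the median of all genes tested to 0.075); the cause was not tested. Over all genes tested, 668 were higher and 810 lower, and with library totals only 896 and 279, a split toward higher genes. With 1 library omitted, the counts were 359 to 644 higher and 471 to 790 lower, with the fewest higher genes without siControl replicate 2 (359 and 490) and the fewest lower without siControl replicate 3 (363 and 471). Of the pathway genes, 20 were higher and 9 lower, 4 lower with library totals only, and 12 to 20 higher and 4 to 9 lower with a library left out. A replicate block gave 987 higher and 1175 lower genes and the same 7 of the 10 genes; the numbers were not used as pairs.

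Some pathway genes that did not pass the threshold changed sign. With library totals only EIF2AK1 was at 0.051, EIF2AK4 at 0.0035 and DHX9 at 0.030, and with limma-voom EIF2AK3 at -0.0038. With a library left out, the lowest and highest log2 fold changes were -0.059 and 0.18 for RNF135, -0.075 and 0.086 for NLRX1, -0.032 and 0.035 for RIPK1, -0.044 and 0.092 for RIPK3, -0.022 and 0.27 for CGAS and -0.067 and 0.12 for EIF2AK3. The fit with at least 10 counts per library did not test IFNL1, and DESeq2 gave no adjusted p for it. Of the 20 levels per length, 16 moved by more than the replicate SD with the length of all annotated exons. The longer ISRE consensus was in 4 of 8 promoters, the core in 3.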
